A study of Homo sapiens with 28 samples.

Results

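Decitabine at 3 µM was set against decitabine at 0.3 µM in A549 and H1299, a pair of human cell lines derived from non-small cell lung cancers. The 8 arrays compared, of 28 in the series, were chosen by their labels: 2 of A549 and 2 of H1299 at 3 µM, and 2 of A549 and 2 of H1299 at 0.3 µM. Cells of both doses were exposed for 48 h, with fresh drug every 24 h. Apart from 1 array of A549 at 3 µM marked as a repeat, the labels give no difference between the groups but dose. Total RNA was read on 1-colour Affymetrix oligonucleotide arrays. The 4 arrays at 1 µM (2 per line) and the 4 vehicle arrays (dimethyl sulfoxide, 2 per line) are used beside them, and the azacitidine arrays of the same study serve to estimate the spread within lines. A549 is a lung adenocarcinoma line, and H1299 is a lung large cell carcinoma line taken from a lymph node metastasis; each line is 1 culture model of its tumour type. The question was which expression changes go on growing above the low dose.

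Decitabine is a deoxycytidine analog. Cells phosphorylate it and build it into new DNA, where DNA methyltransferases become trapped on it; methylation is then lost as DNA is copied, and genes silenced by methylated CG dinucleotides can be transcribed again. The trapped protein is also a DNA lesion, and cells can answer such damage by turning on arrest and death genes. Germline genes, normally kept methylated in somatic cells, are classic responders to the drug.

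The identity of the lines was checked on defining markers. CDKN2A, which A549 is known to have lost, read 33.6 to 102 in A549 and 1375 to 1658 in H1299 over the decitabine and vehicle arrays. The keratin KRT18 was bright in both lines, 11538 to 15648 in A549 and 4583 to 7824 in H1299, whereas the epithelial cadherin CDH1 did not exceed 14.5 in H1299. Of the leukocyte markers with a probe set, 2 of 24 passed the signal filter (ITGAM, an integrin of myeloid cells, differed by 0.50, adjusted p = 0.0317, and CORO1A by -0.03, adjusted p = 0.919), and of the endothelial and fibroblast markers 3 of 16. The summed leukocyte marker signal was 897 to 963 at 3 µM and 814 to 833 at 0.3 µM in A549, and 830 to 851 at 3 µM and 788 to 850 at 0.3 µM in H1299; its part in the results was not tested. PTPRC, the defining leukocyte marker, stayed between 4.85 and 20.8 on all these arrays. The label of 1 array, A549 at 3 µM replicate 1, marks it as a repeat, and the text gives the count without it for the comparison as a whole and for the gene lists where leaving it out moved a count by over 1.5 times. Arrays of a pair correlated at 0.990 to 0.993 over genes among the 8 compared.

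Promoters of 3 genes are printed because they stand for the 3 courses described here: FAS was higher at 3 µM than at 0.3 µM, LRP8 was lower, and the germline gene DAZL was already high at 0.3 µM. Each window runs from 250 bases before to 50 bases after the transcription start, from RefSeq on build GRCh38.p14, 5′ to 3′ on the gene's strand, with every CG dinucleotide in capitals. FAS lies at chr10:88990548-88990847 on the plus strand, LRP8 at chr1:53328021-53328320 on the minus strand, and DAZL at chr3:16605374-16605673 on the minus strand.
FAS: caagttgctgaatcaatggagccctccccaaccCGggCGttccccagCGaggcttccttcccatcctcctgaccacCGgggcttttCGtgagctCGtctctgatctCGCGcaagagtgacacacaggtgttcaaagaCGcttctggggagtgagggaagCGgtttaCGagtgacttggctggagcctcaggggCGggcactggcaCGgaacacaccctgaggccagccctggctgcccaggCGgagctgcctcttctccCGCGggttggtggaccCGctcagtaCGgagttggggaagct
LRP8: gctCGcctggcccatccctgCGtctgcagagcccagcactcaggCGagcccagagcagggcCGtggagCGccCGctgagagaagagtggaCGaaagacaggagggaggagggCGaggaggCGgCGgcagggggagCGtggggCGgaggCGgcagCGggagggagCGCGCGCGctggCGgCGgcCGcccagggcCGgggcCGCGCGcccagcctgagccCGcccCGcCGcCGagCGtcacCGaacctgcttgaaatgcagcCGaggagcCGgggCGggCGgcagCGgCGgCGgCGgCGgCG
DAZL: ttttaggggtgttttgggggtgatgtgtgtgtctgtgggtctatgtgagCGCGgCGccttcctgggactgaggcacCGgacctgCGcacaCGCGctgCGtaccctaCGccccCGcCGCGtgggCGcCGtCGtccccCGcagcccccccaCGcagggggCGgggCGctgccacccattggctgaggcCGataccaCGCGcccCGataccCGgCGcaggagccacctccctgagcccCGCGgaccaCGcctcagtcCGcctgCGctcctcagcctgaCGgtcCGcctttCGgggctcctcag
The FAS window holds 18 CG, the LRP8 window 41 and the DAZL window 33. Of the tested genes with a promoter in the table, 78.0% hold at least as many as FAS, 11.8% at least as many as LRP8 and 30.9% at least as many as DAZL. The motif counted was CG, which reads the same on both strands, and 99.7% of these windows hold at least 1. The median was 25 CG among genes higher at 3 µM (209 of 251 matched), 28 among genes lower at 3 µM (135 of 160 matched) and 27 among all genes tested (6662 of 8024 matched). No methylation was measured on these arrays.

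From 0.3 to 3 µM, 251 genes were higher and 160 lower in both lines together, of 8024 genes tested. With each array centred on its median the split was 179 higher and 327 lower, so the balance of directions depends on the scaling, which moved the median of all genes to -0.02 in place of 0.02. Among the 12 largest rises were RRAD, PCSK7, FAS, ANXA3 and ACTA2, and among the 12 largest falls LRP8, ASNS and SCD. Of the gene lists, 11 of 30 damage-response genes of arrest and feedback and 5 of 21 epithelial genes rose, 10 of 61 G1/S and replication genes, 8 of 65 mitotic genes and 11 of 43 genes of the integrated stress response fell, and 0 of 23 germline genes were higher at 3 µM. Differences are given on the log2(signal + 32) scale, 3 minus 0.3 µM, which understates the change of dim genes, and a gene is called at an adjusted p under 0.05 from limma with cell line as a block. The 411 called genes are 5.12% of those tested, the higher ones 3.13% and the lower ones 1.99%. These are the shares to set beside the list counts of this 8-array fit over both lines. Of all 8024 genes, 756 were higher and 488 lower with the spread of all 28 arrays. With median centring 179 were higher and 327 lower, and with quantile normalization 214 and 163. Without 1 array in turn 115 to 191 were higher and 65 to 177 lower. List counts of those fits are to be set beside these counts of all genes. An unadjusted p under 0.05 was found in 1841 genes, 1115 higher and 726 lower. These are the counts of all 8024 genes to set beside unadjusted list counts. In the fit to all 28 arrays they were 1394 and 938, and without the repeated A549 array 1057 and 784. Most shifts were small: 10 genes, all higher, exceeded 1 on the log2 scale. In 244 of the higher genes and 159 of the lower ones the 3 µM arrays lay wholly beyond the 0.3 µM arrays within each line, against 11.6% and 8% of all genes tested. The same arrays gave the calls, so this separation follows largely from the selection and is no separate evidence. With the spread taken from all 28 arrays 1244 genes were called, 403 of the 411 among them. Without 1 array in turn the count was 368 without A549 3 µM replicate 1, the repeated array, 239 without A549 3 µM replicate 2, 180 and 202 without H1299 3 µM replicates 1 and 2, 219 and 201 without A549 0.3 µM replicates 1 and 2, and 275 and 199 without H1299 0.3 µM replicates 1 and 2.

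RRAD, a RAS-related small GTPase, had the largest common rise. It read 253 and 226 at 3 µM against 87.3 and 79.7 at 0.3 µM in A549, and 184 and 167 at 3 µM against 7.46 and 20.3 at 0.3 µM in H1299. The groups did not overlap in either line, and the difference was 1.71 (SE 0.192, adjusted p = 0.00155). The vehicle arrays read 26.3 and 19.04 in A549 and 3.28 and 6.45 in H1299, so in H1299 the gene was dim up to the low dose.

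FAS encodes the death receptor that binds FAS ligand. Its signal was 1705 and 1780 at 3 µM against 818 and 757 at 0.3 µM in A549, and 652 and 709 at 3 µM against 285 and 314 at 0.3 µM in H1299. The rise had the smallest adjusted p of the largest rises and was nearly equal in the lines: 1.11 over both (SE 0.0724, adjusted p = 4.53e-05), 1.12 in A549 and 1.10 in H1299. The courses below 0.3 µM differed. In A549 the vehicle arrays read 456 and 489, below the low dose, but in H1299 they read 450 and 462, above it with no overlap. FAS was thus lower at 0.3 µM than in vehicle in H1299 before it was higher at 1 µM (521 and 520) and 3 µM.

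ACTA2, smooth muscle actin, is the neighbour of FAS on chromosome 10, with no annotated gene between them. Its signal was 2023 and 1772 at 3 µM against 691 and 694 at 0.3 µM in A549, and 254 and 270 at 3 µM against 140 and 169 at 0.3 µM in H1299. Both lines rose without overlap, by 1.41 in A549 and 0.66 in H1299, and by 1.03 over both (SE 0.139, adjusted p = 0.0032). ANXA3, an annexin that binds phospholipid, rose from different floors: 3070 and 3118 at 3 µM against 1669 and 1950 at 0.3 µM in A549, where vehicle arrays read 2870 and 2609, and 349 and 317 at 3 µM against 100.8 and 119 at 0.3 µM in H1299, where vehicle arrays read 24.3 and 25.4. The difference over both lines was 1.07 (SE 0.12, adjusted p = 0.00155). In A549 the high dose was thus close to vehicle, and the low dose below it.

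CCL20 and TGFA encode secreted signals. CCL20, a chemokine that draws CCR6-bearing lymphocytes, read 219 and 251 at 3 µM against 119 and 107 at 0.3 µM in A549, and 363 and 308 at 3 µM against 128.2 and 143 at 0.3 µM in H1299. It rose by 1.00 (SE 0.11, adjusted p = 0.00155), and its vehicle arrays read 5.90 to 14.96 over the lines. TGFA, a ligand of the EGF receptor, read 508 and 503 at 3 µM against 225 and 213 at 0.3 µM in A549, and 190 and 195 at 3 µM against 102 and 77.3 at 0.3 µM in H1299. It rose by 0.99 (SE 0.104, adjusted p = 0.00142). The low dose had left TGFA near its A549 vehicle level of 212 and 225 and below its H1299 level of 120 and 154.

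The other large rises were PCSK7, a proprotein convertase, by 1.40 (SE 0.203), SLC7A9, a cystine transporter subunit, by 1.01 (SE 0.185), RNF128, a ubiquitin ligase, by 0.96 (SE 0.114), SERPINB7, a serpin, by 0.96 (SE 0.153), and ARG2, mitochondrial arginase, by 0.94 (SE 0.121). PCSK7 varied within groups: its H1299 arrays read 217 and 119 at 3 µM against 19.8 and 47.7 at 0.3 µM, and its H1299 vehicle arrays 29.4 and 191. All 12 of the largest rises kept their call in each other setting run, 17 for FAS, ANXA3, ACTA2, EPCAM and ARG2 and 16 for the rest, which did not pass a stricter signal filter. The other kept probe set of ARG2 differed by 0.29 (adjusted p = 0.158) and was not called.

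**Figure D1:**
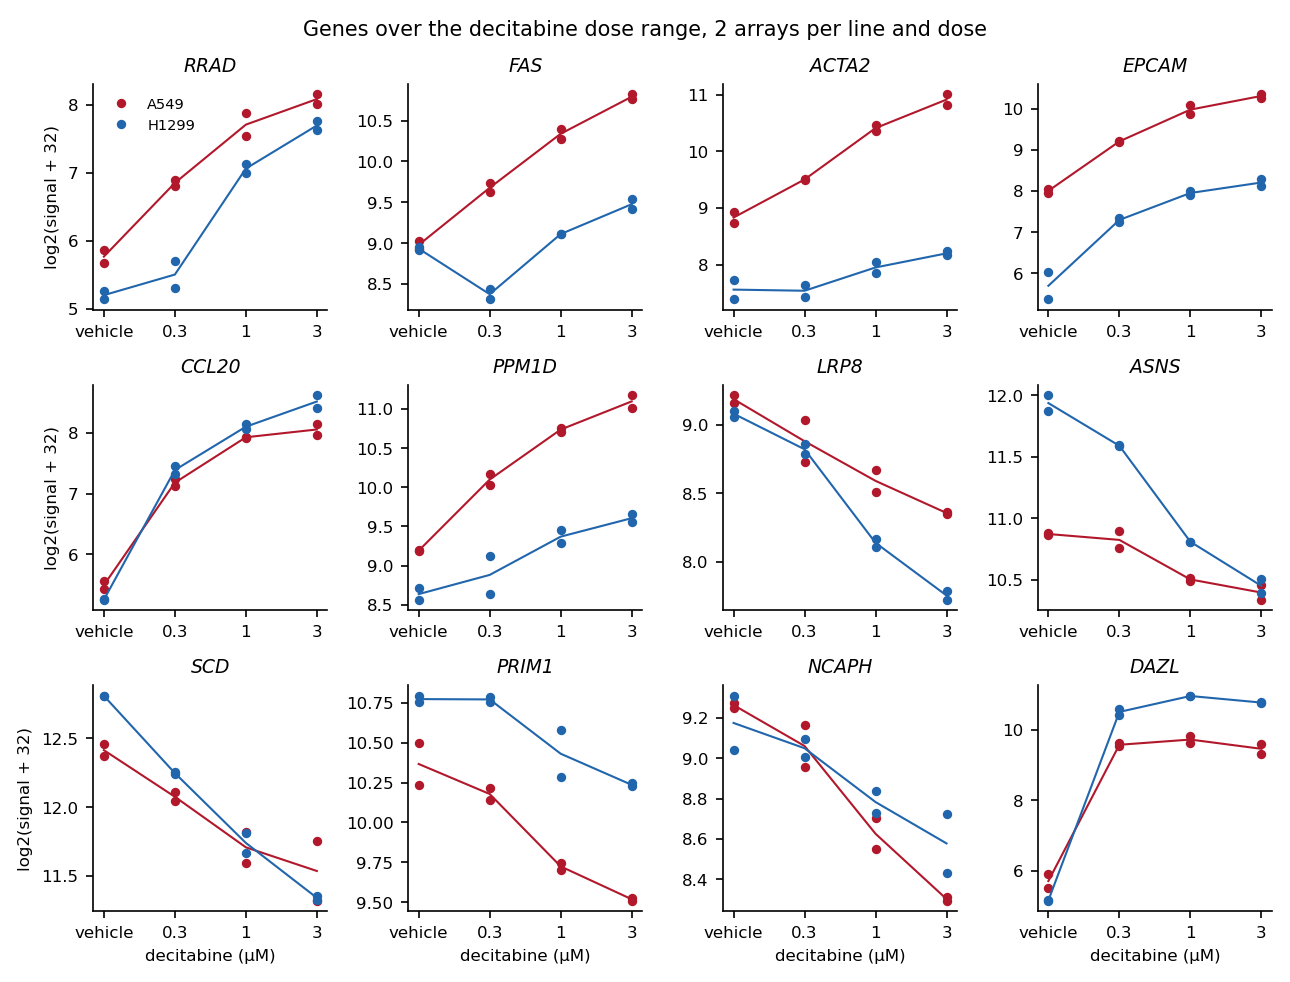
Signal of 12 genes as log2(signal + 32), a log axis, at vehicle, 0.3, 1 and 3 µM decitabine (evenly spaced categories); points are the 2 arrays of each line and lines join their means. RRAD, FAS, ACTA2, EPCAM, CCL20 and PPM1D are higher at 3 µM than at 0.3 µM in both lines, and LRP8, ASNS, SCD, PRIM1 and NCAPH are lower. DAZL is high from 0.3 µM on, and its 3 µM arrays lie above its 0.3 µM arrays in H1299 but overlap them in A549.

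Among the largest falls were genes of lipid and amino acid supply. LRP8, a lipoprotein receptor that binds apolipoprotein E, read 294 and 297 at 3 µM against 392 and 491 at 0.3 µM in A549, and 189 and 179 at 3 µM against 409 and 431 at 0.3 µM in H1299. It fell by 0.79 on the log2 scale (SE 0.123, adjusted p = 0.0061). ASNS, asparagine synthetase, read 1374 and 1260 at 3 µM against 1872 and 1696 at 0.3 µM in A549, and 1424 and 1314 at 3 µM against 3064 and 3039 at 0.3 µM in H1299. It fell by 0.78 (SE 0.123, adjusted p = 0.00681). The vehicle level of ASNS was higher in H1299 (3716 and 4075) than in A549 (1830 and 1856), and at 3 µM the lines overlapped.

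SCD, the desaturase that makes oleic acid, read 2524 and 3418 at 3 µM against 4180 and 4385 at 0.3 µM in A549, and 2535 and 2591 at 3 µM against 4794 and 4860 at 0.3 µM in H1299. It fell by 0.72 (SE 0.0986, adjusted p = 0.00324) from a low dose that already lay below the vehicle arrays, which read 5260 and 5586 in A549 and 7139 and 7130 in H1299. SLC7A11, the cystine importer, fell by 0.69 (SE 0.123), INSIG1, which holds back sterol regulatory proteins, by 0.63 (SE 0.115), PSAT1 of serine synthesis by 0.62 (SE 0.12), and CALML4, a calmodulin-like protein, by 0.69 (SE 0.123). The call of PSAT1 was lost in 2 of 17 settings, at an adjusted p of up to 0.0525. The largest fall, that of EEF2KMT, at -0.999, lost its call in 6 of 16 settings, and those of KIFC1 and SLC19A1 lost theirs in 10 and 11 of 16 and that of DHRS2 in 7 of 17. One of the 3 kept probe sets of SLC7A11 differed by -0.02 (adjusted p = 0.947). EEF2KMT was dim, with 21.4 and 21.1 at 3 µM against 110 and 111 at 0.3 µM in A549.

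The 1 µM arrays mostly read between the other doses in the called genes. Of the 251 higher genes, the 1 µM mean lay between the 0.3 and 3 µM means in both lines in 200 (79.7%), and of the 160 lower ones in 129 (80.6%), against 2165 (27.0%) of all genes tested; a middle dose falls between more readily where the ends lie apart, so no test is given. The median step from 0.3 to 1 µM was 0.26 and that from 1 to 3 µM 0.19 in the higher genes, and -0.22 and -0.14 in the lower ones. These steps share arrays with the main comparison. Tested alone, 1 µM over 0.3 µM gave 16 higher and 5 lower genes (0.199% and 0.0623% of genes, 0.262% called, 1048 at an unadjusted p under 0.05). Without 1 array in turn it gave 1 to 9 genes, 1 of them without H1299 1 µM replicate 1 and 9 without H1299 0.3 µM replicate 1, and with the spread of all 28 arrays 215. For 3 over 1 µM limma called 0 genes, with 695 at an unadjusted p under 0.05, and 7 genes with the spread of all 28 arrays.

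The low dose was not always between vehicle and the high dose. Of the 251 higher genes, 225 had a 3 µM mean above vehicle in both lines, but 88 had a 0.3 µM mean below vehicle in A549, 98 in H1299 and 46 in both. FAS in H1299 and ANXA3 in A549 are examples. Of the 160 lower genes, 142 had a 3 µM mean below vehicle in both lines, and 54 had a 0.3 µM mean above vehicle in both. Of all 8024 genes tested, 4237 had a 0.3 µM mean below vehicle in A549, 4215 in H1299 and 2789 in both, and 2361 had one above vehicle in both. A low dose below vehicle was thus less frequent among the 251 higher genes than among all genes. The 0.3 µM arrays enter both sides of this description.

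Genes that decitabine had moved could be marked on arrays the comparison does not use, 1 µM against vehicle. There 644 genes were higher (8.03%) and 578 lower (7.2%), 15.2% called in all. Of the 644, 124 were higher again from 0.3 to 3 µM (19.3%, against 3.13% of all genes) and 7 lower (1.09%, against 1.99%), with a median difference of 0.20. Of the 578, 66 were lower again (11.4%, against 1.99%) and 1 higher, with a median of -0.13. So 513 and 511 genes moved by 1 µM were not called between 0.3 and 3 µM. The 124 make up 49.4% of the higher genes and the 66 make up 41.3% of the lower ones. In 102 of the 124 and 61 of the 66 the means lay in dose order from 0.3 to 3 µM in both lines. Of all genes tested, 27.0% had the 1 µM mean between the other doses in both lines, in either direction. Median differences from vehicle at 0.3, 1 and 3 µM were 0.24, 0.52 and 0.68 in A549 and 0.29, 0.59 and 0.78 in H1299 for the 124, and -0.18, -0.44 and -0.59 in A549 and -0.16, -0.41 and -0.56 in H1299 for the 66. The 124 and the 66 were chosen by 3 against 0.3 µM and by 1 µM against vehicle. Dose order and these medians follow in part from that choice, so no test is given. Of the 81 genes over 1 on the log2 scale at 1 µM, 26 were higher from 0.3 to 3 µM, 3 lower and 52 not called. Without H1299 vehicle replicate 1 the 1 µM comparison called 563 genes in place of 1222, without H1299 vehicle replicate 2 619, without A549 1 µM replicate 2 798, and without H1299 1 µM replicates 1 and 2 638 and 604.

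Germline genes were not called higher at 3 µM over both lines. Of the 23 cancer-testis and germline genes tested, of 75 listed, 10 were higher at 1 µM than in vehicle and 0 lower. The signal filter counted treated arrays, so genes dim in all vehicle arrays passed only through treated ones, which partly fixes that count. Between 0.3 and 3 µM, 0 of the 23 were higher and 4 lower (3.13% and 1.99% of all genes). With so few genes, 0 is near the share of all genes. At an unadjusted p under 0.05, 0 were higher. The fit to all 28 arrays called 0 higher, with 1 higher unadjusted. In A549 alone 1 was called higher and 3 lower, and in H1299 0 higher and 1 lower. DAZL, an RNA-binding protein of germ cells, read 609 and 743 at 3 µM against 711 and 752 at 0.3 µM in A549, and 1733 and 1710 at 3 µM against 1344 and 1514 at 0.3 µM in H1299. The vehicle arrays read 27.2 and 13.7 in A549 and 3.20 and 3.85 in H1299. Most of its signal was thus present at the low dose, and the difference above it over both lines was 0.08, with a 95% interval of -0.14 to 0.29. Its 3 µM arrays lay above its 0.3 µM arrays without overlap in H1299 and overlapped them in A549. MAGEB2, a cancer-testis antigen, differed by -0.18 over both lines, with an interval of -0.36 to 0.00. In H1299 it read 2701 and 2800 at 3 µM against 2707 and 2787 at 0.3 µM, where vehicle arrays read 38.7 and 14.2. The H1299 doses overlapped, so the lower mean of MAGEB2 over both lines lay in A549.

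The 4 lower germline genes, all X-linked cancer-testis antigens, were MAGEC1 (-0.74, SE 0.152), SSX1 (-0.46, SE 0.0923), SSX3 (-0.44, SE 0.0882) and MAGEA1 (-0.42, SE 0.096). MAGEC1 read 81.5 and 62.8 at 3 µM against 115 and 113 at 0.3 µM in A549, and 24.0 and 17.2 at 3 µM against 68.9 and 75.4 at 0.3 µM in H1299. In H1299 its 3 µM arrays lay below its vehicle arrays, which read 26.9 and 32.2. The calls of MAGEC1 and SSX3 were lost in 6 and 5 of 16 settings and those of SSX1 and MAGEA1 in 5 and 10 of 17, and without 1 array in turn 1 to 3 members were called, 1 without H1299 0.3 µM replicate 2 and also 1 without H1299 3 µM replicate 1. Other kept SSX3 probe sets differed by -0.55 (adjusted p = 0.166) and -0.19 (adjusted p = 0.395) and were not called. Probe sets of the MAGE and SSX families may read near-identical copies. MAGEC1, SSX1 and SSX3 were among the 7 genes higher at 1 µM than in vehicle and lower from 0.3 to 3 µM. DNMT3B, a de novo DNA methyltransferase, was another: 488 and 557 at 3 µM against 822 and 696 at 0.3 µM in A549, and 399 and 353 at 3 µM against 491 and 529 at 0.3 µM in H1299 (-0.46, SE 0.0885, adjusted p = 0.0155, and 0.054 in the setting that lost the call). Its vehicle arrays read 538 and 420 in A549 and 259 and 253 in H1299, so 0.3 µM was the highest of the 4 conditions in both lines.

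**Figure D2:**
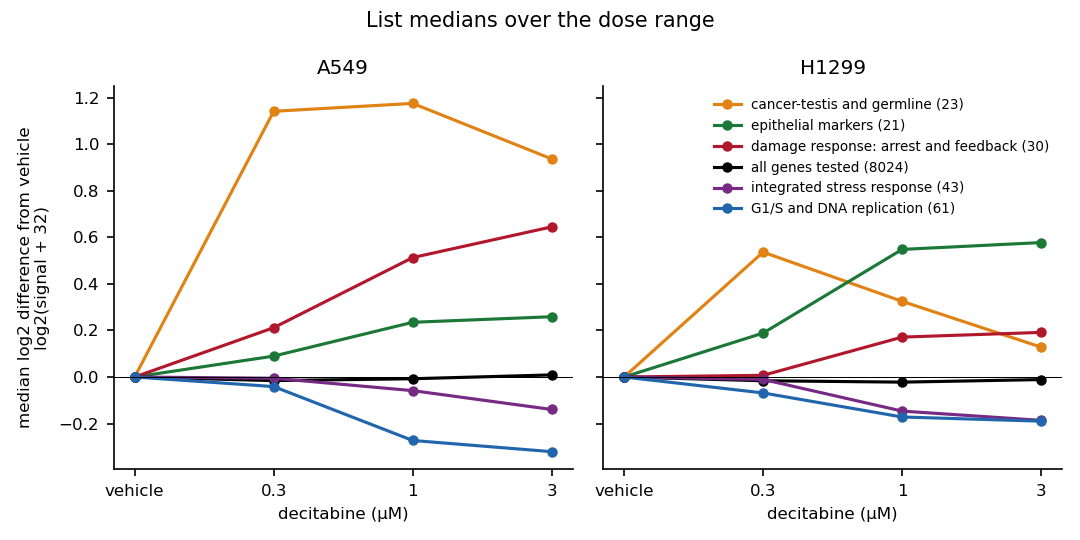
Median log2 difference from vehicle, on the log2(signal + 32) scale, of the tested members of 5 gene lists (numbers in brackets) and of all genes, at 0.3, 1 and 3 µM decitabine in A549 and in H1299. Germline genes have their rise at 0.3 µM. Their medians at the 3 doses are 1.14, 1.18 and 0.94 in A549 and 0.54, 0.33 and 0.13 in H1299. Damage-response genes of arrest and feedback in A549 are at 0.21, 0.51 and 0.65 at the 3 doses. Germline genes dim in vehicle passed the signal filter only through treated arrays, so their medians over vehicle are partly fixed by it.

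Damage-response genes that act in arrest and feedback were higher in part. Of 30 tested, 11 were higher and 0 lower, with a median of 0.34 against 0.02 for all genes. The count was 5 to 9 without 1 array in turn, 5 without A549 0.3 µM replicate 2, 6 without A549 0.3 µM replicate 1, 6 and 7 without A549 3 µM replicates 2 and 1, and 15 with the spread of all 28 arrays. PPM1D, a phosphatase that shuts damage signalling down, read 2284 and 2035 at 3 µM against 1015 and 1115 at 0.3 µM in A549, and 776 and 718 at 3 µM against 367 and 525 at 0.3 µM in H1299. It rose by 0.86 (SE 0.108, adjusted p = 0.00276) with no overlap in either line. CYFIP2, a member of the actin-regulating WAVE complex, rose by 0.74 (SE 0.139; its other kept probe set differed by 0.14, adjusted p = 0.77), SESN1, a sestrin that restrains mTORC1, by 0.67 (SE 0.123), and SUSD6 by 0.53 (SE 0.0899).

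By line, 18 of the 30 were higher and 0 lower in A549, where 5.67% of all genes were higher, and 6 were higher and 1 lower in H1299, where also 5.67% were. The test of the difference between lines called 5 of the 30 larger in A549 and 2 larger in H1299 (2.14% and 1.65% of all genes). CDKN1A, the p21 inhibitor of cyclin-dependent kinases, read 3767 and 3460 at 3 µM against 2005 and 2221 at 0.3 µM in A549, and 922 and 890 at 3 µM against 712 and 843 at 0.3 µM in H1299. Its rise was 0.77 in A549 (SE 0.0955, adjusted p = 3.18e-05) and 0.22 in H1299 (interval 0.02 to 0.42, adjusted p = 0.163). The difference of 0.55 between lines (SE 0.135, adjusted p = 0.0257) lost its call in 6 of 17 settings. MDM2, a ubiquitin ligase, rose by 0.78 in A549 (SE 0.208, adjusted p = 0.0205, call lost in 4 of 13 settings) and differed by -0.21 in H1299 (interval -0.64 to 0.22); the difference between lines had an adjusted p of 0.0644. In the list of death receptors and BCL2 proteins, 1 of 30 was higher, FAS, and 1 lower, BNIP3, a mitochondrial BH3 protein, by 0.60 on the log2 scale (SE 0.116, call lost in 3 of 17 settings); with the spread of all 28 arrays 7 were higher and 2 lower, and without H1299 0.3 µM replicate 2 or H1299 3 µM replicate 1 the lower count was 0.

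Part of the replication and mitosis genes fell. Of 61 genes of G1/S and DNA replication, 10 were lower and 0 higher (1.99% and 3.13% of all genes), with a median of -0.20, and of 65 genes of G2/M and mitosis 8 were lower and 0 higher, with a median of -0.13. With the spread of all 28 arrays 27 of the 61 were lower and 1 higher, and 20 of the 65 lower and 0 higher; with median centring 22 of the 61 and 14 of the 65 were lower. Without 1 array in turn 4 to 9 of the 61 and 4 to 7 of the 65 were lower; the 61 gave 4 without A549 0.3 µM replicate 1 or 2 or A549 3 µM replicate 2, and the 65 gave 4 without A549 0.3 µM replicate 2 or H1299 3 µM replicate 2. PRIM1, the DNA primase, read 706 and 696 at 3 µM against 1156 and 1097 at 0.3 µM in A549, and 1165 and 1182 at 3 µM against 1734 and 1698 at 0.3 µM in H1299. It fell by 0.60 (SE 0.0639, adjusted p = 0.00142), and in H1299 its low dose overlapped vehicle, at 1745 and 1693. NCAPH, a condensin subunit, read 282 and 286 at 3 µM against 542 and 466 at 0.3 µM in A549, and 313 and 391 at 3 µM against 515 and 482 at 0.3 µM in H1299, and fell by 0.62 (SE 0.102, adjusted p = 0.00852). GINS1 of the replicative helicase fell by 0.45 (SE 0.078), ESPL1, the separase, by 0.48 (SE 0.0793), and MAD2L1 of the spindle checkpoint by 0.41 (SE 0.0665). In bulk RNA, fewer cycling cells and less RNA of these genes in each cell cannot be told apart.

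More members fell in A549: 19 of 61 and 27 of 65 were lower there (3.2% of all genes), and 9 of 61 and 5 of 65 in H1299 (4.26% of all genes). By the test of the difference, 5 of the 61 and 7 of the 65 were lower in A549 relative to H1299 and 0 the other way. E2F8, a repressing E2F factor, read 171 and 214 at 3 µM against 450 and 400 at 0.3 µM in A549, and 623 and 573 at 3 µM against 627 and 684 at 0.3 µM in H1299. It fell by 1.03 in A549 (SE 0.119, adjusted p = 1.3e-05), and the difference between lines was -0.91 (SE 0.168, adjusted p = 0.00431). Of 45 DNA damage and repair genes 3 were lower and 0 higher (7 lower with median centring, 11 lower and 3 higher with the spread of all 28 arrays), among them the mismatch protein MSH6 (-0.44, SE 0.0638) and the histone H2AX (-0.36, SE 0.0537). Without the repeated A549 array 4 of the 45 were lower and 1 higher. Other kept H2AX probe sets differed by -0.39 (adjusted p = 0.0825) and -0.15 (adjusted p = 0.377).

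The integrated stress response is used by cells to answer amino acid shortage. Of 43 genes tested, 11 were lower and 2 higher; besides ASNS, SLC7A11 and PSAT1 the list holds transporters and tRNA synthetases. The lower count was 6 to 13 without 1 array in turn, 13 without the repeated A549 array, 6 without H1299 3 µM replicate 1, and 7 without A549 0.3 µM replicate 2, H1299 0.3 µM replicate 1 or 2, or H1299 3 µM replicate 2; it was 21 with the spread of all 28 arrays, with 6 higher. The higher count was 1 or 2 without 1 array in turn. ATF3, a stress-induced factor on the same list, went the other way, with 400 and 399 at 3 µM against 219 and 305 at 0.3 µM in A549, and 441 and 468 at 3 µM against 263 and 220 at 0.3 µM in H1299. It rose by 0.70 (SE 0.114, adjusted p = 0.00787). In H1299 alone 15 of the 43 were lower and 4 higher (4.26% and 5.67% of all genes). In A549 10 were lower and 2 higher (3.2% and 5.67% of all genes). The fall of ASNS was 1.14 on the log2 scale in H1299 and 0.43 in A549, and the difference of 0.71, A549 minus H1299, had an adjusted p of 0.000502 (SE 0.0986).

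Of 25 cholesterol and fatty acid genes, 4 were lower, SCD and INSIG1 among them, and 1 higher, ELOVL6, a fatty acid elongase, by 0.57 (SE 0.105). In H1299 10 of the 25 were lower and 0 higher (4.26% and 5.67% of all genes), and in A549 1 lower and 2 higher (3.2% and 5.67%). The test of the difference between lines called 1 of them, and 3.79% of all genes. The common count was 2 without any 1 of the 4 H1299 arrays, 3 or 4 without an A549 array, and 8 with the spread of all 28 arrays. Of 28 NRF2 targets 5 were lower and 0 higher, 4 to 7 without 1 array in turn and 8 with the spread of all 28 arrays. Among them, besides SLC7A11, were PGD of the pentose phosphate pathway (-0.54, SE 0.0667), PIR (-0.52, SE 0.084) and GCLM of glutathione synthesis (-0.39, SE 0.0582).

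**Figure D3:**
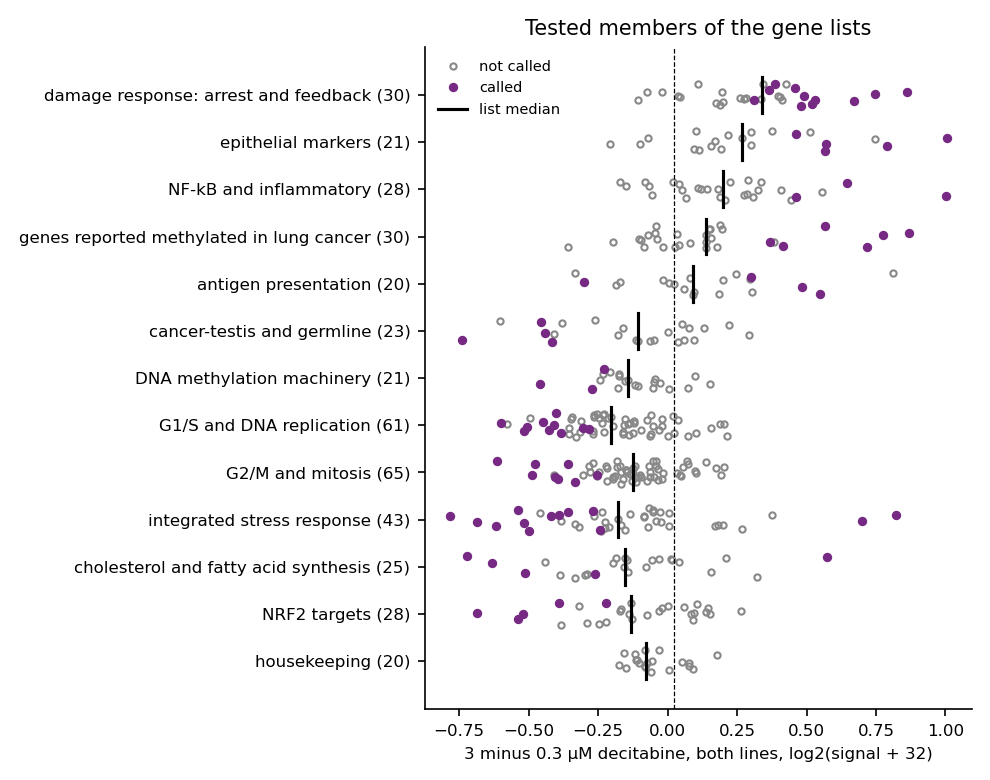
Each point is a tested gene of the list named at the left (numbers tested in brackets), placed by its 3 minus 0.3 µM difference over both lines on the log2(signal + 32) scale; filled points passed the threshold, black bars are list medians and the dashed line is the median of all genes. The list of damage-response genes of arrest and feedback has a median of 0.34, G1/S genes one of -0.20, and 0 of 20 housekeeping genes were called.

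Among epithelial genes the calls over both lines were rises. Of 21 tested, 5 were higher and 0 lower, with a median of 0.27; without 1 array in turn 4 to 6 were higher, and 1 was lower without the repeated A549 array, with median centring or with the spread of all 28 arrays. EPCAM, the epithelial cell adhesion molecule, read 1272 and 1200 at 3 µM against 555 and 560 at 0.3 µM in A549, and 280 and 247 at 3 µM against 131 and 119 at 0.3 µM in H1299. It rose by 1.01 (SE 0.0864, adjusted p = 0.000412) with no overlap. Its vehicle arrays read 235 and 215 in A549 and 9.23 and 33.2 in H1299, so both doses lay above vehicle. DSP, the desmosomal plaque protein, read 2530 and 2707 at 3 µM against 2076 and 2095 at 0.3 µM in A549, and 1637 and 1603 at 3 µM against 913 and 901 at 0.3 µM in H1299, and rose by 0.57 (SE 0.093, adjusted p = 0.00804). MUC1, a membrane mucin, rose by 0.79 (SE 0.136), and its other kept probe set differed by 0.46 (adjusted p = 0.124). AQP3, a water and glycerol channel of keratinocytes, rose by 0.69 (SE 0.0932, adjusted p = 0.0032), the 1 call among 11 squamous genes tested in both lines together. The other kept AQP3 probe set differed by -0.05 (adjusted p = 0.919), and with the spread of all 28 arrays 5 of the 11 were higher; without H1299 0.3 µM replicate 1 the count was 2. In A549 alone 6 of the 11 were higher, and in H1299 1, with 5.67% of all genes higher in each line.

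The mesenchymal list was also higher in part: of 24 tested 4 were higher and 0 lower, ACTA2 among them, and CCN2, a matricellular growth regulator, by 0.61 (SE 0.115, adjusted p = 0.0141). CCN2 read 7740 and 8372 at 3 µM against 4337 and 4072 at 0.3 µM in H1299, and 824 and 823 at 3 µM against 630 and 711 at 0.3 µM in A549. Without 1 array in turn 2 or 3 of the 24 were higher, 2 without any 1 of the 4 A549 arrays or without H1299 3 µM replicate 1, and 1 was lower without the repeated A549 array. Of 30 genes reported methylated in lung cancer, 6 were higher and 0 lower, 2 to 5 without 1 array in turn: 2 without H1299 0.3 µM replicate 2 or H1299 3 µM replicate 1, and 3 without A549 0.3 µM replicate 2, A549 3 µM replicate 2 or H1299 3 µM replicate 2. DKK1, a secreted inhibitor of Wnt signalling, read 9697 and 9009 at 3 µM against 6727 and 5954 at 0.3 µM in A549, and 2240 and 2308 at 3 µM against 1207 and 1052 at 0.3 µM in H1299. It rose by 0.78 (SE 0.0917, adjusted p = 0.00205). IGFBP3, which binds insulin-like growth factors, rose by 0.72 (SE 0.133), more in H1299 (1.08) than in A549 (0.36; difference adjusted p = 0.00825). The other kept IGFBP3 probe set differed by 0.67 over both lines (adjusted p = 0.227) and was not called.

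Calls in the immune lists were few, but the higher share of the inflammatory and antigen presentation lists lay above the 3.13% of all genes. Of 28 NF-kB and inflammatory genes 3 were higher and 0 lower, CCL20 with the largest rise; the count was 1 to 5 without 1 array in turn, 1 without H1299 3 µM replicate 1 and 5 without A549 3 µM replicate 2, and 10 with the spread of all 28 arrays. Of 20 antigen presentation genes 3 were higher and 1 lower, with 7 higher and 1 lower with the spread of all 28 arrays; without 1 array in turn 1 to 3 were higher (1 without A549 0.3 µM replicate 1 or H1299 3 µM replicate 1) and 0 lower. TAP1, the peptide transporter, rose by 0.55 (SE 0.0901, adjusted p = 0.00818). Of 27 interferon-stimulated genes 1 was higher and 1 lower, a share near that of all genes, and 4 were higher with the spread of all 28 arrays. Of these calls the higher was lost in 7 of the 8 fits without 1 array, though not without A549 0.3 µM replicate 1, and the lower in 7, though not without the repeated A549 array. Among 20 housekeeping genes limma called 0, with 1 higher and 3 lower at an unadjusted p under 0.05 and 0 called in the fit to all 28 arrays; without the repeated A549 array 3 were called lower and 10 were lower unadjusted. Among 44 ribosomal protein genes it called 0, with 5 lower at an unadjusted p under 0.05 and 2 lower in the fit to all 28 arrays; without the repeated A549 array 5 were called lower and 31 were lower unadjusted, and 1 was called with median centring. Of all 8024 genes 726 were lower unadjusted and 488 lower in the fit to all 28 arrays. The 5 lower unadjusted with no array left out and the 2 were near those shares. Glycolysis gave 0 of 20, with 2 higher and 5 lower unadjusted, 2 lower in the 28-array fit, 2 lower with median centring and 5 lower without the repeated A549 array.

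The drug's uptake and activation were covered by a list of their own. Of 28 genes of cytidine analog uptake and metabolism limma called 0, with 10 lower at an unadjusted p under 0.05 and 8 lower in the fit to all 28 arrays, 5 lower with median centring, 1 with quantile normalization, and 1 without H1299 0.3 µM replicate 1 or without the repeated A549 array. Of all 8024 genes 726 were lower unadjusted and 488 lower in the fit to all 28 arrays. DCK, the kinase that activates decitabine, differed by -0.07 (interval -0.29 to 0.15), SLC29A1, a nucleoside transporter, by -0.32 (interval -0.54 to -0.09, adjusted p = 0.0906), and DNMT1, the maintenance methyltransferase, by -0.18 (interval -0.32 to -0.04, adjusted p = 0.109).

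Each line had further changes of its own. Within A549 455 genes were higher and 257 lower (8.87% called), and within H1299 455 higher and 342 lower (9.93% called), in the fit to all 28 arrays; 135 genes were called in the same direction in both lines and 18 in opposite directions. With median centring the split was 317 higher and 363 lower in A549 and 297 higher and 471 lower in H1299. With the 8 arrays alone the counts were 462 and 447. Without 1 array in turn A549 gave 337 to 507, the lowest without A549 3 µM replicate 1, with 367 and 363 without A549 0.3 µM replicates 1 and 2. H1299 gave 327 to 591, with 327 without H1299 0.3 µM replicate 1 and 329 and 366 without H1299 3 µM replicates 1 and 2. The test of the difference itself called 304 genes (3.79%), 172 with the larger value in A549 and 132 with the larger value in H1299, and 68 with the 8 arrays alone.

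LY6D, a surface protein of stratified epithelia anchored by a lipid, had the largest rise in A549. It read 744 and 721 at 3 µM against 92.3 and 134 at 0.3 µM in A549, a rise of 2.41 (SE 0.173, adjusted p = 4.21e-08), whereas in H1299 it did not exceed 6.62 at any dose. The difference between lines was 2.53 (SE 0.244, adjusted p = 8.84e-06). KRT19, a simple epithelial keratin, read 795 and 714 at 3 µM against 261 and 295 at 0.3 µM in A549, and 143 and 133 at 3 µM against 123 and 119 at 0.3 µM in H1299. It rose by 1.34 in A549 (SE 0.138), and the difference between lines was 1.19 (SE 0.195, adjusted p = 0.0015). In H1299, where vehicle arrays read 1.35 and 1.10, KRT19 had gained nearly all its signal at 0.3 µM. TSPAN1, a tetraspanin, read 175 and 187 at 3 µM against 36.8 and 20.9 at 0.3 µM in A549, and its H1299 arrays overlapped, with 67.2 and 128.1 at 3 µM against 146 and 69.4 at 0.3 µM. CDH1, the epithelial cadherin, rose by 0.79 in A549 (SE 0.168, adjusted p = 0.00454), with 901 and 908 at 3 µM against 502 and 515 at 0.3 µM, and was at or near 0 in H1299.

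In H1299 the largest rises after RRAD were those of ARL14, an ARF-like GTPase, and that of NVL, a nuclear AAA ATPase, by 1.87 (SE 0.357). ARL14 read 1726 and 1608 at 3 µM against 335 and 487 at 0.3 µM in H1299, a rise of 1.96 (SE 0.166, adjusted p = 2.23e-07), and 35.8 and 16.4 at 3 µM against 22.5 and 18.3 at 0.3 µM in A549. The difference between lines was -1.83 (SE 0.234, adjusted p = 0.000261). EGR3, an immediate-early transcription factor, read 125 and 123 at 3 µM against 11.5 and 26.8 at 0.3 µM in H1299, and 8.16 and 19.2 at 3 µM against 34.3 and 23.7 at 0.3 µM in A549. Its low dose in H1299 was close to vehicle, at 26.3 and 23.3, and the difference between lines was -2.05 (SE 0.319, adjusted p = 0.000972).

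Some H1299 genes were highest at 0.3 µM. ASMTL, a gene of the pseudoautosomal region, read 887 and 870 at 3 µM against 2029 and 1813 at 0.3 µM, a fall of 1.10 on the log2 scale (SE 0.0792, adjusted p = 2.41e-08), with 1352 and 1358 at 1 µM and 524 and 511 in vehicle. In A549 it read 403 and 446 at 3 µM against 408 and 442 at 0.3 µM. The difference between lines was 1.10 (SE 0.112, adjusted p = 8.84e-06). DHRS2, a dehydrogenase of the short-chain family, had the same course in H1299, with 243 and 302 at 3 µM against 686 and 621 at 0.3 µM, and 63.6 and 22.4 in vehicle. It fell there by 1.18 (SE 0.184, adjusted p = 0.000318). GPX1, glutathione peroxidase, read 849 and 729 at 3 µM against 1247 and 1104 at 0.3 µM in H1299, where vehicle arrays read 2.09 and 13.5, and 3465 and 3210 at 3 µM against 2543 and 2436 at 0.3 µM in A549. The difference of 0.98 between lines had an adjusted p of 0.0123 (SE 0.213, call lost in 4 of 17 settings). In A549 the clearest fall beside E2F8 was that of NAA15, the auxiliary subunit of the main N-terminal acetyltransferase, with 225 and 294 at 3 µM against 674 and 582 at 0.3 µM (-1.19, SE 0.162, adjusted p = 8.88e-05), and 854 and 1208 at 3 µM against 1012 and 1176 at 0.3 µM in H1299.

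**Figure D4:**
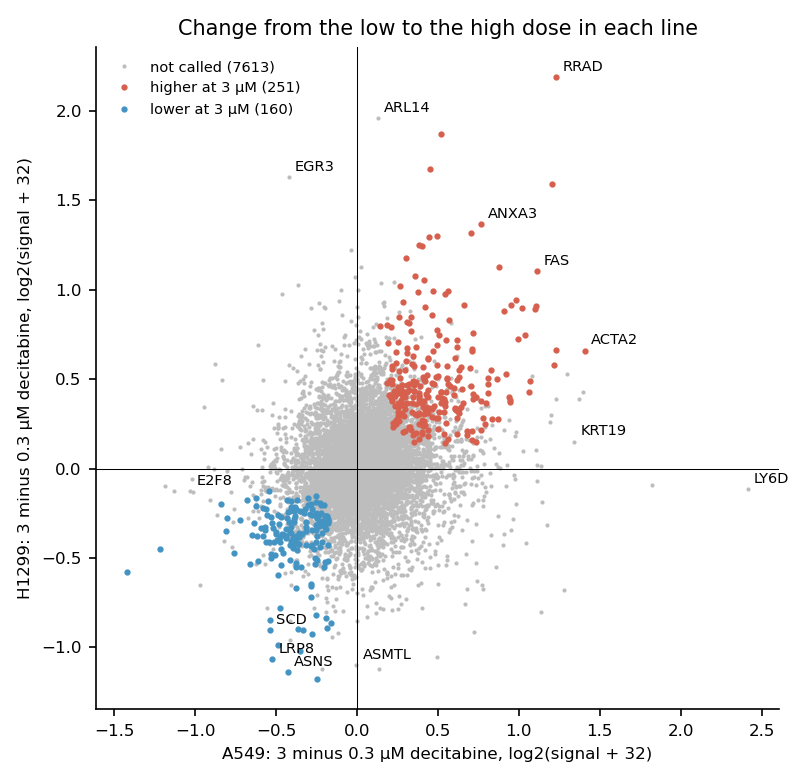
Each point is 1 of the 8024 genes, placed by its 3 minus 0.3 µM difference in A549 (horizontal) and in H1299 (vertical), both on the log2(signal + 32) scale; coloured points are the 251 higher and 160 lower genes of both lines together. LY6D and KRT19 lie far right near 0 for H1299, ARL14 and EGR3 lie high near or left of 0 for A549.

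**Figure D5:**
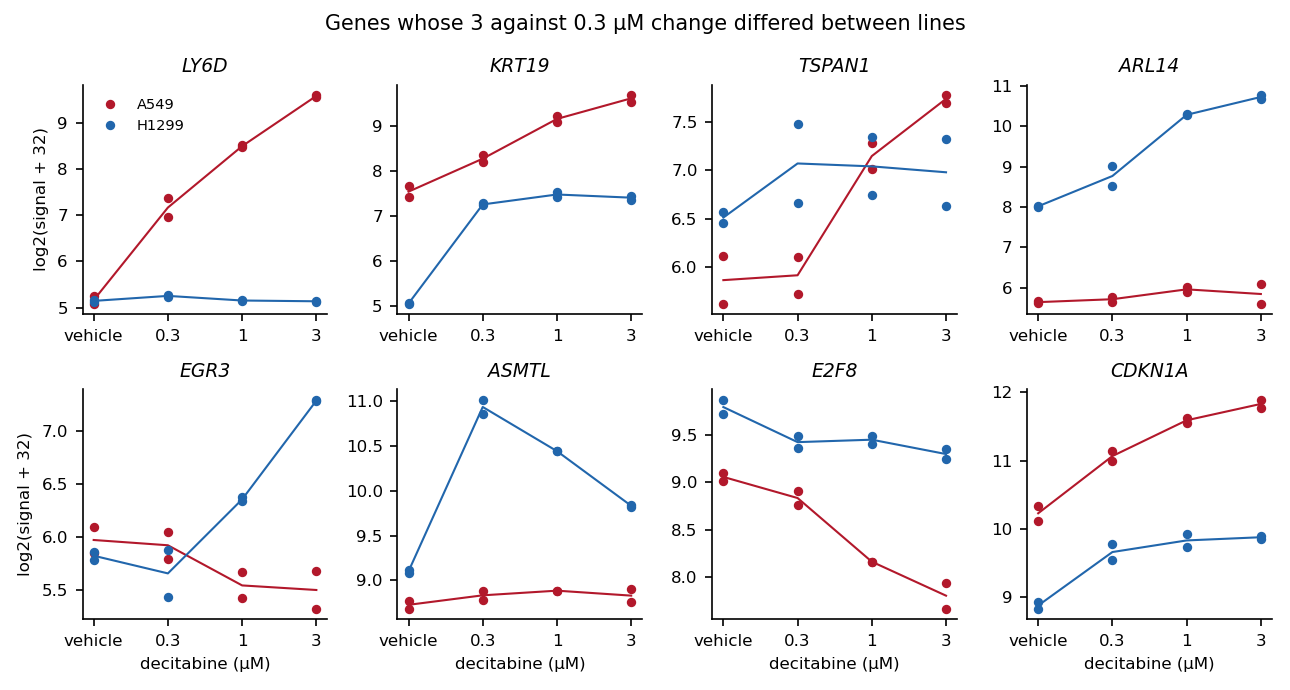
Signal of 8 genes as log2(signal + 32), a log axis, at vehicle, 0.3, 1 and 3 µM decitabine (evenly spaced categories) in A549 and H1299, with 2 arrays each as points and means joined. The genes passed the test of the difference between lines; LY6D climbs at every dose in A549 and ASMTL peaks at 0.3 µM in H1299.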

How the data were processed

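The authors deposited linear MAS5 signal, an intensity, for 22277 probe sets on each of 28 arrays; MAS5 comes from the submitters' processing notes, and its version and scaling target are not given in the sources used here. The 2% trimmed mean lay between 500.1 and 500.2 on the decitabine and vehicle arrays, so these arrays share a scale; their medians were 94.0 to 123. Precision is limited by how few arrays a group holds. Of the probe sets, 19064 were named for 1 gene, 1043 for several and 2108 for none, and 62 were controls. Entrez lookup changed 0 symbols.

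Probe sets above the median of their array on 2 or more of 28 arrays were kept, and each gene was read from its singly named kept probe set with the highest mean, which gave 8024 genes. Of 154 called genes with several kept probe sets, 121 had another one that was not called, 14 had one of opposite sign, and 0 had probe sets called in opposite directions. Values were taken as log2(signal + 32). The main comparison was fitted with limma 3.58.1 in R 4.3.3 (data.table version 1.17.8) to 8 arrays with cell line as a block (5 residual degrees of freedom), eBayes with a trend, two-sided, Benjamini-Hochberg adjusted over all genes at 0.05. Changes in 1 line and their difference came from a fit to all 28 arrays (14 residual degrees of freedom). Intervals cover 95%. The fits were tested on simulated data first. Figures were drawn with matplotlib 3.10.9.

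Whether the 2 arrays of a group are separate cultures is not stated in the labels, so p-values measure only how far such arrays differ, which may be technical. The comparison, the gene lists and the panel of genes were chosen with earlier results of these data known. Named genes are the 12 largest rises and 12 largest falls of the main comparison without overlap in either line, the 6 largest each way in each line and in the difference between lines, the 4 largest called members of each list, and a panel of 24 genes, of which 2 had no value. Where a gene's arrays are given, its call was also weighed under other pseudocounts, filters, scalings, probe set choices, variance models and sample sets. Same-numbered arrays of the 2 doses deviated from their group means with a correlation of 0.016 in A549 and 0.0015 in H1299, and the labels do not pair them, so no replicate block entered the main fit.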

Additional observations from a re-analysis of the deposited data

Results flagged for a closer look

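The results below differed between the lines by the interaction contrast of limma, with values given as the A549 difference minus the H1299 difference of 3 minus 0.3 µM on the log2(signal + 32) scale; 304 genes passed. Among epithelial genes these were LY6D at 2.53, TSPAN1 at 1.91, KRT19 at 1.19 and ITGB4, an integrin of hemidesmosomes, at 1.55. The ITGB4 arrays read 218 and 218 at 3 µM against 137 and 154 at 0.3 µM in A549, and 5.77 and 9.78 at 3 µM against 45.1 and 56.3 at 0.3 µM in H1299. SERPINF1, a secreted serpin, differed by 1.45, RUNDC3A by 1.42 and MAPK3, the kinase ERK1, by 1.94; the call of MAPK3 was lost in 11 of 17 settings and that of RUNDC3A in 10 of 16.

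The changes of EGR3 at -2.05, ARL14 at -1.83, the orphan receptor NR4A3 at -1.40, CCDC88A at -1.33, ZNF345 at -1.23 and IFRD1 at -1.18 were larger in H1299 or opposite in A549. Among cell cycle and arrest genes, E2F8 differed by -0.91 and CDKN1A by 0.55, and NAA15 differed by -1.09. Genes that changed in both lines together but by unequal amounts were ACTA2 at 0.75, LRP8 at 0.54, ASNS at 0.71, DHRS2 at 0.93 and SLC7A11 at 0.67. The calls of ACTA2, LRP8, DHRS2 and SLC7A11 were lost in 8, 11, 12 and 6 of 17 settings, and that of ASNS in 0. ASMTL differed by 1.10 and GPX1 by 0.98. Groups hold 2 arrays each, too few to look for a single array that stands apart.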

How the results depend on the processing

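Counts of called genes moved by over 1.5 times in these settings. For 3 over 0.3 µM in both lines (411) no filter gave 246, no variance trend 219, a replicate block 149 and all 28 arrays 1244; leaving out 1 array gave 180 to 368. For A549 (712) the 8 arrays gave 462 and leaving out 1 array 337 to 507, for H1299 (797) 447 and 327 to 591, and for the difference between lines (304) 68 and 131 to 331. For 1 over 0.3 µM (21) a pseudocount of 1 gave 7, no filter 3, quantile normalization 13, median centring 8, no trend 4, a replicate block 4, all 28 arrays 215 and leaving out 1 array 1 to 9. For 3 over 1 µM (0) all 28 arrays gave 7 and leaving out 1 array 0 to 0. For 1 µM over vehicle (1222) a replicate block gave 790, all 28 arrays 2474 and leaving out 1 array 563 to 1179. The cause was not tested, except that fewer arrays enter where 1 is left out and more estimate the spread with 28. Of 85 named genes called in the main comparison, 41 kept the call in every setting run for them (16 or 17), 34 lost it in over 5 and 0 reversed. The difference of ZNF345 between lines turned to 0.0085 with a pseudocount of 1 (adjusted p = 0.998 there). The replicate numbers do not pair the arrays, and the block is given as counts alone. List counts without 1 array, with 28 arrays and under other scalings were added after seeing the data.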

Other observations

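Some genes downstream of ERK differed between the lines. EGR1, an immediate-early factor downstream of ERK, read 2678 and 2605 at 3 µM against 1097 and 1205 at 0.3 µM in H1299, where vehicle arrays read 365 and 341, and 109 and 119 at 3 µM against 79.9 and 92.6 at 0.3 µM in A549. Its change was 1.18 in H1299 (SE 0.126, adjusted p = 3.25e-06) and 0.30 in A549 (adjusted p = 0.141), and the difference of -0.87, A549 minus H1299, had an adjusted p of 0.00825. Over both lines this probe set rose by 0.74, but the other kept EGR1 probe set differed by 0.10 (adjusted p = 0.809). DUSP6, the phosphatase that turns ERK off, had the larger change in A549, with 540 and 634 at 3 µM against 308 and 320 at 0.3 µM in A549 (0.84, SE 0.109), and 4128 and 4473 at 3 µM against 4058 and 3096 at 0.3 µM in H1299 (0.28, SE 0.109, adjusted p = 0.116), and its difference of 0.56 had an adjusted p of 0.0453. Other kept DUSP6 probe sets differed over both lines by 0.36 (adjusted p = 0.263) and 0.51 (adjusted p = 0.103) and were not called. Of 26 RAS-ERK and AP-1 genes, 3 were higher and 1 lower in both lines together, and 7 higher and 1 lower with the spread of all 28 arrays; without 1 array in turn 0 to 2 were higher, 0 without H1299 0.3 µM replicate 2 or H1299 3 µM replicate 2. Without the repeated A549 array 1 was higher and 1 lower. The test of the difference called 1 of the 26 larger in A549 and 6 larger in H1299 (2.14% and 1.65% of all genes), the 1 being near the share of all genes.

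Of 21 genes of the DNA methylation machinery 3 were lower and 0 higher, with 6 lower in the fit to all 28 arrays and 5 with median centring. Leaving out 1 array made that count 1, except 3 without the repeated A549 array. Of 41 ribosome biogenesis genes 2 were lower and 0 higher, with 4 lower and 3 higher in the fit to all 28 arrays and 0 or 1 lower without 1 array in turn (1 without A549 3 µM replicate 1, H1299 0.3 µM replicate 1 or H1299 3 µM replicate 2). Of 53 oxidative phosphorylation genes 1 was lower and 0 higher, with 2 lower and 1 higher in that fit, and with quantile normalization 0 were lower and 1 higher; the call was lost without each array but H1299 0.3 µM replicate 1. Of 15 imprinted genes 1 was higher and 1 lower, with 3 higher in that fit. Leaving out 1 array gave 0 to 2 higher, 0 without H1299 0.3 µM replicate 2 or either H1299 3 µM array, and the lower call held without A549 0.3 µM replicate 2 alone. Without the repeated A549 array 2 were higher and 0 lower. Of 8 metallothioneins limma called 0, with 4 higher at an unadjusted p under 0.05 and 2 in the fit to all 28 arrays, and of 14 replication-dependent histone genes it called 0, with 1 higher and 1 lower unadjusted and 1 higher in that fit. Of all 8024 genes 1115 were higher and 726 lower unadjusted, so the unadjusted histone counts were near the shares of all genes.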
